A study of Mus musculus with 6 samples.

Results

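The genes described here are 10 genes of the major histocompatibility complex (MHC) system, out of 23183 genes listed for each library. They were taken by symbol, and all 10 were found: the class I heavy chains H2-K1 and H2-D1, their light chain B2m, the class I peptide loading genes Tap1, Tap2 and Tapbp, the class II chains H2-Aa and H2-Ab1, the class II invariant chain Cd74 and the class II transactivator Ciita. The libraries were made from total RNA of primary group 2 innate lymphoid cells (ILC2) of the lung of mice labelled WT, with no strain, sex or age given. ILC2 lack rearranged antigen receptors and answer tissue alarm signals with type 2 cytokines. One group was treated with DTA-1, which activates GITR, a co-stimulatory receptor of the TNF receptor family (3 libraries), and the other with an IgG2b isotype control antibody (3 libraries). The cells of all 6 libraries, controls included, also received IL-2, IL-7 and IL-33 at 10 ng/ml for 24 h, so no unstimulated cells are among them. The comparison asks how engaging GITR alters the transcripts of ILC2 that are already activated by these cytokines.

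MHC class I molecules sit on nearly all nucleated cells and show peptides from the cell's own proteins to CD8 T cells. The peptides are cut by the proteasome, pumped into the endoplasmic reticulum by the TAP transporter and fitted into the heavy chain and B2m with the help of tapasin. MHC class II molecules show peptides from endosomes to CD4 T cells and are found mainly on dendritic cells, B cells and macrophages. ILC2 are among the innate lymphocytes known to carry class II, through which they can exchange signals with T cells. CIITA, which is required for class II transcription in most cells, and its relative NLRC5, which drives class I genes, bind no DNA themselves but join a factor complex on a shared promoter module.

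The values were taken as FPKM, fragment counts scaled to transcript length and library size, so levels of different genes can be compared. Depth, estimated from the step size of low values, lay between 18800000 and 20700000 fragments per library. DTA-1 replicate 1 stood apart within its group: across the 10501 tested genes its Pearson correlation with the other DTA-1 libraries was 0.9846 and 0.9824, against 0.9956 between those libraries. The IgG2b libraries correlated with each other at 0.9687, 0.9825 and 0.9800. Nothing in the labels tells if replicates are separate animals or cultures, so p-values reflect only the spread among these samples, and that may be technical. In such bulk RNA, fewer cells carrying a transcript and less of it per cell cannot be told apart.

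The promoter windows of class I and class II members are shown because these genes share elements through which they can be regulated together. They come from RefSeq on GRCm38.p6 and span 250 bases before to 50 bases after a transcription start. Windows were read for 6 of the 10 members, of which 5 are shown. Read but not shown are the Tapbp window, with NF-Y boxes 248 and 165 bases before its start, and a second H2-K1 window from a nearby start, with the kB motif 125 bases before it. Capitals mark matches, on either strand, to 4 motifs: CCAAT, the core of the NF-Y box; TGACGT, a CRE-like core; a kB motif, the run of 10 capitals found in H2-K1 and H2-D1; and GAANTGAAA, an interferon consensus motif. H2-K1 is on the minus strand (chr17:34000298-34000597), H2-D1 on the plus strand (chr17:35262844-35263143), B2m on the plus strand (chr2:122147437-122147736), Tap1 on the plus strand (chr17:34187306-34187605) and H2-Aa on the minus strand (chr17:34287774-34288073).
H2-K1: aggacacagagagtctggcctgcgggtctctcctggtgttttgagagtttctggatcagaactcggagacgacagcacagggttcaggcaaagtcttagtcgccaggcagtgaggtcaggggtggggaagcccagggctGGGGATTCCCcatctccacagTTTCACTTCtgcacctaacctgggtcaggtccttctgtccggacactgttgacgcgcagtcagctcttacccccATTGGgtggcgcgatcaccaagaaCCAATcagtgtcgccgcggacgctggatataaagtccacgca
H2-D1: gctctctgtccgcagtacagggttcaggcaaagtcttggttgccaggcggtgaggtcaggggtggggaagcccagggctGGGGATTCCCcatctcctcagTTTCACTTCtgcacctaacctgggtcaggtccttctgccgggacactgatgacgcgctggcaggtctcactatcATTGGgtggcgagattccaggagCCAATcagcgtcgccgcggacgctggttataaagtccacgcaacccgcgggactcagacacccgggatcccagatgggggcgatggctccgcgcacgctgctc
B2m: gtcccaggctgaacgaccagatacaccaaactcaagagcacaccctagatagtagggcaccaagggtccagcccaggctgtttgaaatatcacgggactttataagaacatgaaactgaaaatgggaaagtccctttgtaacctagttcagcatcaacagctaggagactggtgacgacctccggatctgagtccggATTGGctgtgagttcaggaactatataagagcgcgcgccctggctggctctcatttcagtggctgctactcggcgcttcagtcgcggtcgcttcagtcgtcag
Tap1: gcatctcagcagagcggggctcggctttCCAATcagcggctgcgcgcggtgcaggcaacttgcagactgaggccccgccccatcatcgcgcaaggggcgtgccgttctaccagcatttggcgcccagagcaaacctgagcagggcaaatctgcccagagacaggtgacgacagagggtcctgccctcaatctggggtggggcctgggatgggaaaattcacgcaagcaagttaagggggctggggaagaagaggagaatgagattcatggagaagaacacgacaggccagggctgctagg
H2-Aa: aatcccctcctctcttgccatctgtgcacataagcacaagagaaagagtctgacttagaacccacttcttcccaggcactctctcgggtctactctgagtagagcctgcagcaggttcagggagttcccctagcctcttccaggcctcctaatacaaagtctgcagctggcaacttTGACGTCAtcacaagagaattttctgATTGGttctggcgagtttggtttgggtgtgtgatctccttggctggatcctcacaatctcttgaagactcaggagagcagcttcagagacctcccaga

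The windows of H2-K1 and H2-D1 had the same order of matches: a kB motif, an interferon consensus motif 21 bases further on and a first NF-Y box 95 bases further on, in both genes. Their longest identical run was 47 bases. The kB letters occurred in 0.107% of all 32851 promoter windows of this length and the interferon consensus letters in 1.83%, while the NF-Y box letters were common, at 37.4%. The kB motif was searched as a single exact run of letters. Its share therefore does not tell how common kB sites are, or how unusual they are in these genes. The H2-Aa window held an NF-Y box and a CRE-like core that matched on both strands at overlapping positions, a core found in 7.51% of all windows. B2m and Tap1 each had 1 match, to the NF-Y box. Only matches to the given letters were marked, so variants of these motifs in any window would go unmarked. Matches were not located for Cd74, Tap2, H2-Ab1 or Ciita. A match is a description of the letters in these windows, and no binding was measured here.

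Class I transcripts were among the most abundant in these cells, and class II transcripts were present at much lower levels. B2m ranked between 12 and 25 among all listed genes, H2-K1 between 84 and 99 and H2-D1 between 95 and 107. The 10 genes together made up 0.964% to 0.983% of summed FPKM in the DTA-1 libraries and 0.843% to 1.03% in the IgG2b libraries. Over all 6 libraries, B2m averaged 3021 ± 308 FPKM, H2-K1 1191 ± 94.5, H2-D1 1031 ± 71.7, Cd74 145 ± 38.0, Tap1 89.2 ± 9.62, Tap2 88.7 ± 11.2, Tapbp 75.8 ± 13.4, H2-Ab1 26.6 ± 6.06, H2-Aa 20.2 ± 6.45 and Ciita 0.740 ± 0.218 FPKM (SD, n = 6). Each of these neighbours held its order in 6 of 6 libraries, except that Tap1 lay above Tap2 in 2 of 6 and Tap2 above Tapbp in 5 of 6. At the estimated depth and the length of the principal transcript, the values rest on about 42000 to 56000 fragments per library for B2m, 260 to 650 for H2-Aa and 48 to 120 for Ciita.

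**Figure D1:**
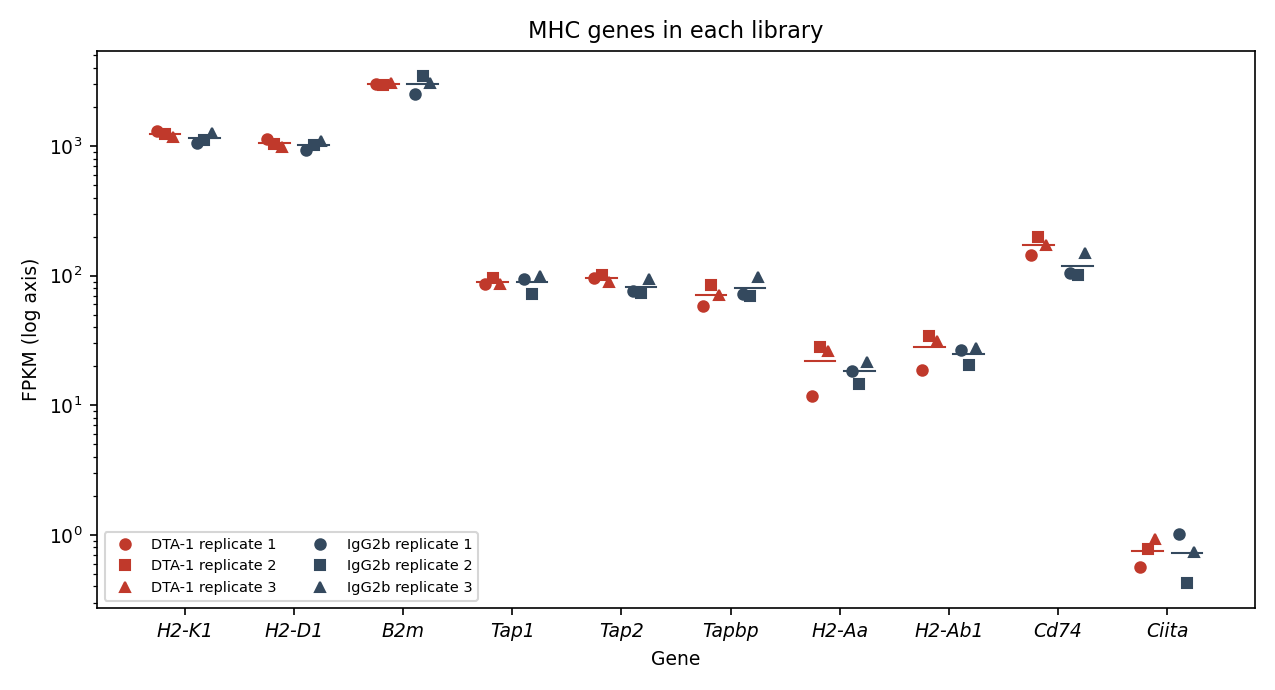
FPKM on a log axis of the 10 MHC genes in each library, with DTA-1 in red to the left and IgG2b in dark blue to the right of each gene; symbols are replicates and bars are group means. B2m, H2-K1 and H2-D1 lie at 930 FPKM and above, H2-Aa and H2-Ab1 between 11.8 and 34.4 FPKM, and the groups overlap for every gene shown.

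None of the 9 tested members passed the limma threshold (adjusted p under 0.05 over all genes), and for none of them did the groups separate. Of all tested genes, 0.0381% passed (0.0286% higher and 0.00952% lower with DTA-1) and 21.6% had groups that did not overlap (11.2% higher and 10.5% lower). At an unadjusted p under 0.05, 1 of the 9 passed, Cd74, against 14.0% of all tested genes. The members' median log2 fold change was 0.12, against 0.01 over all tested genes, and 8 members lay above 0 and 1 below. Ciita did not reach the level needed for the test, which was 1 FPKM in at least 3 libraries. Fold changes below compare log2(FPKM + 1), which understates changes of low genes, and carry their fitted SE or 95% interval. A p that misses the threshold does not show that 2 groups are alike, so the intervals are given.

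The class I heavy chain genes H2-K1 and H2-D1 encode the molecules that hold the peptide, and lie on mouse chromosome 17 (GENCODE on GRCm38, chr17:33996017-34000347 and chr17:35262730-35267499). H2-K1 measured 1296, 1238 and 1179 FPKM in DTA-1 replicates 1, 2 and 3, against 1054, 1111 and 1269 FPKM in IgG2b replicates 1, 2 and 3. IgG2b replicate 3 lay inside the DTA-1 range and the other IgG2b libraries below it. The log2 fold change was 0.12, with an interval from -0.14 to 0.38 (limma adjusted p = 0.722), so a rise above 1.30-fold lay outside the interval. H2-D1 measured 1127, 1038 and 982 FPKM in DTA-1 libraries, against 930, 1019 and 1092 FPKM in IgG2b libraries, and the groups lay across each other (log2 fold change 0.05, interval -0.21 to 0.31, limma adjusted p = 0.891). Without DTA-1 replicate 1 the H2-D1 change was -0.00274. H2-K1 exceeded H2-D1 in 6 of 6 libraries, by a ratio between 1.09 and 1.20, and across the libraries their levels ran in nearly the same order (Pearson r = 0.90, Spearman rho = 0.94, a description over 6 libraries).

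Reads of the heavy chains can be split with their relatives. Of the 50-base windows of the principal transcript, 8.79% for H2-K1 and 14.3% for H2-D1 also occur in transcripts of another listed gene, with the largest overlaps to other H2 genes, and 0 of the windows of B2m, Cd74, H2-Aa, H2-Ab1 and Ciita do. The values of the heavy chains are therefore less certain than those of the other members.

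B2m encodes the invariant light chain of every classical class I molecule and lies on chromosome 2 (chr2:122147686-122153083). It measured 3012, 2968 and 3082 FPKM in DTA-1 libraries, against 2506, 3467 and 3090 FPKM in IgG2b libraries. The DTA-1 values lay inside the IgG2b range, with an SD of 58.0 FPKM against 484 FPKM in IgG2b libraries. The log2 fold change was 0.01, with an interval from -0.30 to 0.32 (limma adjusted p = 0.980). Its direction turned with the scaling, to -0.02 with equal totals and -0.03 after quantile normalization. The ratio of B2m to the sum of both heavy chains was 1.32 ± 0.0935 with DTA-1 and 1.4 ± 0.199 with IgG2b (SD, n = 3, exact permutation p = 0.6).

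Tap1 and Tap2 encode the chains of the peptide transporter, and Tapbp encodes tapasin, which tethers the transporter to the empty heavy chain. All lie on chromosome 17 (chr17:34187553-34197225, chr17:34203527-34216321 and chr17:33915899-33929292). Tap1 measured 86.6, 95.4 and 86.4 FPKM in DTA-1 libraries, against 94.7, 72.7 and 99.6 FPKM in IgG2b libraries. The DTA-1 values all fell inside the IgG2b range. The log2 fold change was 0.02 (interval -0.30 to 0.34, limma adjusted p = 0.967), and it turned to -0.01 with equal totals.

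Tap2 measured 95.6, 102 and 90.1 FPKM in DTA-1 libraries, against 76.0, 74.0 and 95 FPKM in IgG2b libraries. Only IgG2b replicate 3 reached the DTA-1 range. The log2 fold change was 0.23 ± 0.13 (SE), with an interval from -0.06 to 0.53 (limma adjusted p = 0.483), and it kept its sign in 16 of 16 alternatives, between 0.15 and 0.35. The ratio of Tap1 to Tap2 was 0.907, 0.940 and 0.958 in DTA-1 libraries and 1.25, 0.982 and 1.05 in IgG2b libraries, without overlap. The exact permutation p of that ratio was 0.1, the smallest that 3 against 3 allows, and 0.233 adjusted over the 7 ratios computed.

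Tapbp was the 1 tested member whose log2 fold change lay below 0. It measured 58.8, 84.0 and 71.5 FPKM in DTA-1 libraries, against 72.6, 70.2 and 97.8 FPKM in IgG2b libraries. The groups overlapped, and DTA-1 replicate 1 held the lowest value of all. The log2 fold change was -0.16 (interval -0.57 to 0.24, limma adjusted p = 0.754), and -0.03 without DTA-1 replicate 1.

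**Figure D2:**
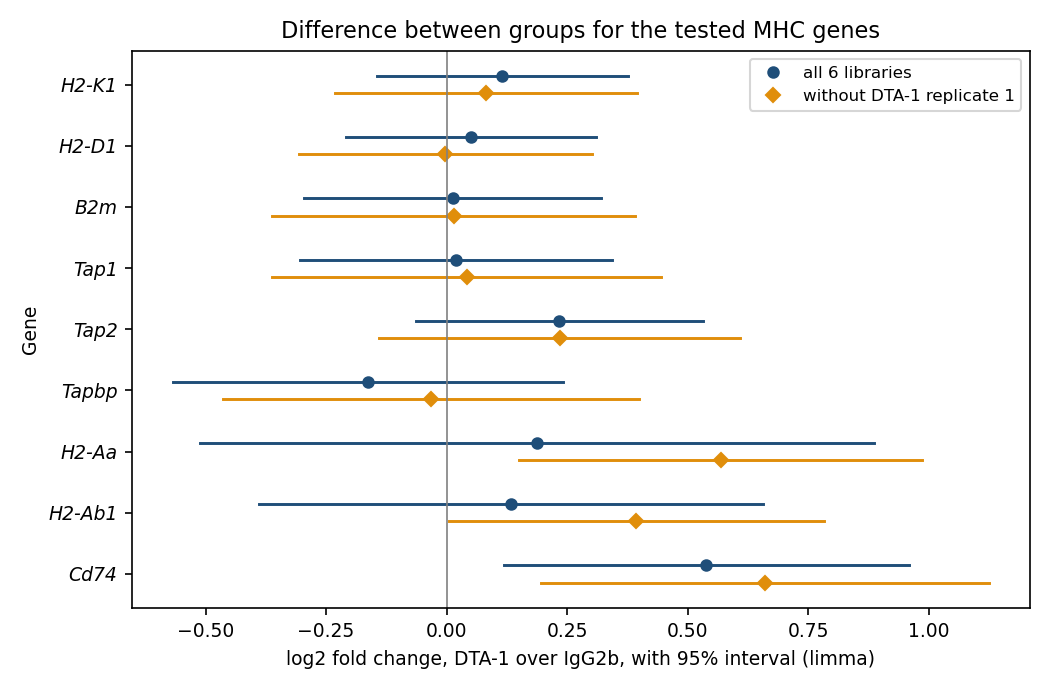
Log2 fold change of DTA-1 over IgG2b for the 9 tested members, with its 95% interval from limma, in all 6 libraries (blue circles) and without DTA-1 replicate 1 (orange diamonds). Intervals of the class I genes span 0 in both fits, while those of H2-Aa and H2-Ab1 lie above 0 only without DTA-1 replicate 1 and that of Cd74 lies above 0 in both, before adjustment.

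Among the tested members, class II genes varied most between libraries relative to their level, and DTA-1 replicate 1 differed from the other DTA-1 libraries in them. H2-Aa encodes the alpha chain of the I-A molecule (chr17:34282744-34287823). It measured 11.8, 28.3 and 26.3 FPKM in DTA-1 replicates 1, 2 and 3, against 18.4, 14.7 and 21.7 FPKM in IgG2b replicates 1, 2 and 3. DTA-1 replicate 1 was the lowest of the 6 libraries, and DTA-1 replicates 2 and 3 the highest. This gave a log2 fold change of 0.19 ± 0.30 (SE), with an interval from -0.51 to 0.89 (limma adjusted p = 0.843).

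H2-Ab1 encodes the partner beta chain of I-A (chr17:34257689-34269419). It measured 18.7, 34.4 and 31.3 FPKM in DTA-1 libraries, against 26.7, 20.5 and 27.6 FPKM in IgG2b libraries. Its order over the libraries was the same as that of H2-Aa (Pearson r = 0.99, Spearman rho = 1, a description over 6 libraries). Its log2 fold change was 0.13 ± 0.23 (SE), with an interval from -0.39 to 0.66 (limma adjusted p = 0.852). H2-Ab1 exceeded H2-Aa by a ratio between 1.19 and 1.58.

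Cd74 encodes the invariant chain, which fills the groove of new class II molecules and guides them to endosomes, and which is also a surface receptor for the cytokine MIF. It measured 144, 200 and 172 FPKM in DTA-1 libraries, against 105, 102 and 149 FPKM in IgG2b libraries. IgG2b replicate 3 lay above DTA-1 replicate 1, and all other DTA-1 values exceeded all IgG2b values. Cd74 had a log2 fold change of 0.54 ± 0.18 (SE), a 1.45-fold higher level with an interval from 1.09-fold to 1.94-fold, the largest among the 9 tested members. It did not pass over all genes (limma unadjusted p = 0.018, adjusted p = 0.238), and its change lay above 0 in 16 of 16 alternatives, between 0.42 and 0.71, with adjusted p no lower than 0.0926.

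Cd74 was 12.2, 7.07 and 6.53 times H2-Aa in DTA-1 libraries and 5.68, 6.94 and 6.88 times H2-Aa in IgG2b libraries. DTA-1 replicate 1, which had the least H2-Aa, therefore had the highest ratio. Relative to H2-Ab1, Cd74 was 7.68, 5.80 and 5.50 in DTA-1 libraries and 3.91, 4.99 and 5.41 in IgG2b libraries, without overlap (exact permutation p = 0.1, the smallest possible; 0.233 adjusted over 7 ratios).

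Without DTA-1 replicate 1, H2-Aa, H2-Ab1 and Cd74 no longer overlapped between the groups and lay higher in DTA-1 replicates 2 and 3 than in every IgG2b library, as did 15.0% of all tested genes (15.1% lay lower and 30.1% separated in either direction). Their log2 fold changes were then 0.57 for H2-Aa, 0.39 for H2-Ab1 and 0.66 for Cd74, and none passed (limma adjusted p = 0.36, 0.507 and 0.348). Without DTA-1 replicate 2, H2-Aa and H2-Ab1 turned to -0.03 and -0.03, and the Cd74 change was 0.42; no member then separated, against 25.1% of all tested genes. Without DTA-1 replicate 3, Tap2 separated, higher with DTA-1, as did 16.2% of all tested genes (30.2% in either direction). Without IgG2b replicate 1, B2m separated, lower with DTA-1, as did 14.8% (31.4% in either direction), and without IgG2b replicate 2 no member did (35.2% in either direction). Without IgG2b replicate 3, H2-K1, Tap2 and Cd74 separated, higher with DTA-1, as did 17.8% (34.8% in either direction).

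**Figure D3:**
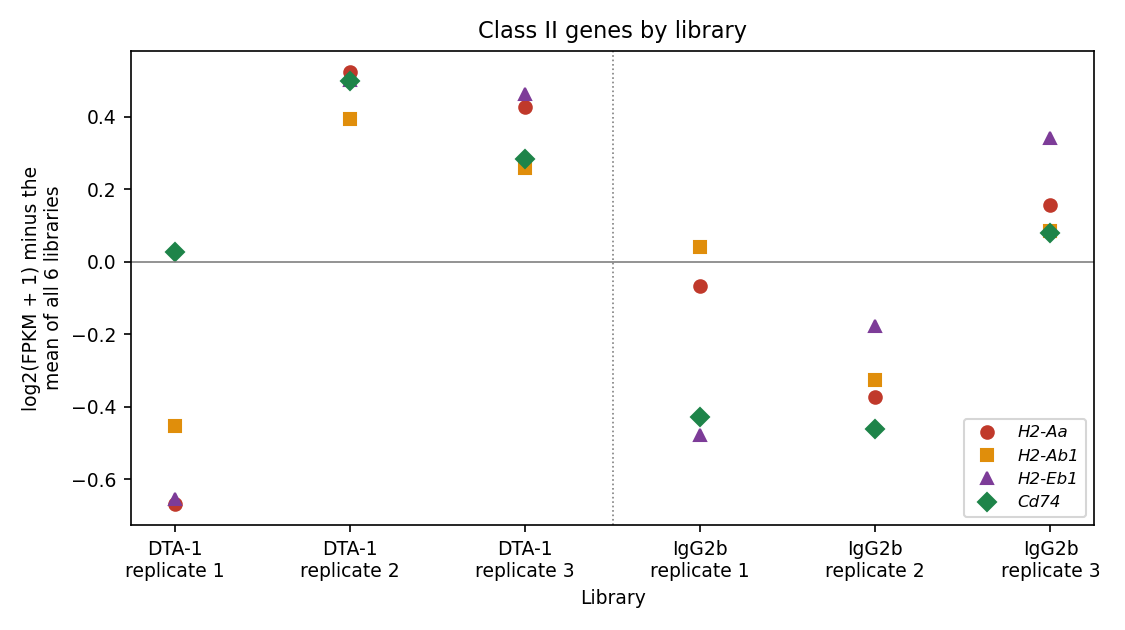
Log2(FPKM + 1) of H2-Aa, H2-Ab1, H2-Eb1 and Cd74 in each library, minus the mean of that gene over all 6 libraries; the dotted line divides DTA-1 (left) from IgG2b (right). The chains lie highest in DTA-1 replicates 2 and 3 and lowest in DTA-1 replicate 1, where H2-Aa is 0.67 below its mean, while Cd74 is lowest in IgG2b replicates 1 and 2.

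Ciita, the transactivator that switches class II genes on, was near the floor (chr16:10480059-10528418). It measured 0.561, 0.772 and 0.926 FPKM in DTA-1 libraries, against 1.01, 0.429 and 0.740 FPKM in IgG2b libraries. The DTA-1 values lay inside the IgG2b range, and an exact permutation test of the means gave p = 0.9. With no filter on low values its log2 fold change was 0.03 (interval -0.34 to 0.40, limma adjusted p = 0.961).

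Cells that carry class II by profession left few marker transcripts in these libraries. Of 31 marker genes of B cells, dendritic cells and macrophages, 26 stayed under 1 FPKM in every library. The others were Cd79b, Zbtb46, Xcr1, Batf3 and Cd68. The dendritic cell marker Zbtb46, too low for the test, measured 1.86, 0.752 and 0.591 FPKM in DTA-1 libraries. In IgG2b libraries it measured 0.143, 0.45 and 0.302 FPKM, lower without overlap. Clec9a, Cd209a, Mrc1, Marco, Siglecf, C1qa, C1qb and Pax5 were listed at 0 in all 6. The summed level of the 9 B cell markers ranged from 3.06 to 6.57 FPKM with DTA-1 and from 3.47 to 7.35 FPKM with IgG2b, and that of the 13 macrophage and monocyte markers from 2.60 to 3.30 FPKM with DTA-1 and from 2.53 to 4.56 FPKM with IgG2b. The 9 dendritic cell markers summed to between 15.4 and 24.1 FPKM with DTA-1 and between 13.3 and 15.9 FPKM with IgG2b, mostly from Batf3, a transcription factor gene that lymphocytes also express, at 12.3 to 20.1 FPKM with DTA-1 and 7.86 to 12.7 FPKM with IgG2b. The 7 T cell markers in the files summed to between 11.7 and 12.2 FPKM with DTA-1 and between 15.7 and 17.2 FPKM with IgG2b, and the 8 lung epithelium markers to between 1.54 and 2.22 FPKM with DTA-1 and between 3.89 and 4.65 FPKM with IgG2b, both lower with DTA-1 without overlap. The epithelium sum came mostly from Epcam, at 1.09 to 1.85 FPKM with DTA-1 and 2.84 to 4.34 FPKM with IgG2b. Most of the T cell sum came from Cd3g, at 7.07 to 9.13 FPKM with DTA-1 and 9.35 to 10.2 FPKM with IgG2b, and Lck, at 2.45 to 3.54 FPKM with DTA-1 and 4.87 to 6.51 FPKM with IgG2b, while Cd3d, Cd3e, Cd4, Cd8a and Cd8b1 stayed under 1 FPKM in every library. The 12 ILC2 markers were all past the level needed for the test and summed to between 10086 and 11671 FPKM with DTA-1 and between 6364 and 7621 FPKM with IgG2b. The cytokine genes Il13, at 5422 ± 720 FPKM with DTA-1 and 2326 ± 453 with IgG2b, and Il5, at 3183 ± 747 FPKM with DTA-1 and 2169 ± 531 with IgG2b (SD, n = 3), made up most of that sum. Without them, a choice made after the values were seen, the other 10 summed to between 1879 and 2197 FPKM with DTA-1 and between 2411 and 2637 FPKM with IgG2b, lower with DTA-1 without overlap. The largest part of this sum was Il2ra, at 1216 ± 122 FPKM with DTA-1 and 1425 ± 251 with IgG2b (SD, n = 3), and its own groups overlapped. Among these 10 markers, the IL-33 receptor gene Il1rl1 had 191, 174 and 180 FPKM in DTA-1 libraries and 204, 310 and 246 FPKM in IgG2b libraries. The receptor gene Klrg1 had 10.5, 43.6 and 48.1 FPKM in DTA-1 libraries and 97.0, 115 and 79.8 FPKM in IgG2b libraries. Both were lower without overlap, as were 10.5% of all tested genes. Groups overlapped for the rest: means with DTA-1 were lower for Il7r, Il2ra, Icos, Areg and Ptprc, and higher for Gata3, Rora and Thy1. The part of these differences in the MHC values was not tested.

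Other genes of both pathways were taken from lists. Among 71 tested list genes none passed the limma threshold, against 0.0381% of all tested genes. The groups did not overlap for 20 of them (12 higher and 8 lower with DTA-1), or 28.2%, against 21.6% of all tested genes. At an unadjusted p under 0.05, which 14.0% of all tested genes reached, stood 1 of 14 other heavy chains, 4 of 12 genes of class I supply and loading, 0 of 5 class II genes, 2 of 9 of endosomal processing, 3 of 11 regulators and 8 of 20 of the interferon gamma response.

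The remaining class I heavy chains include relatives with narrower roles than H2-K1 and H2-D1. Of 28 listed genes 14 were tested, with a median log2 fold change of 0.05. The most abundant were H2-T23, which encodes Qa-1, a ligand of the receptor NKG2A on NK cells, at 184 ± 10.5 FPKM with DTA-1 and 166 ± 25.0 with IgG2b, and H2-Q4, at 163 ± 10.0 FPKM with DTA-1 and 167 ± 18.0 with IgG2b (SD, n = 3). H2-Q8 stood at 155, 150 and 160 FPKM in DTA-1 libraries against 127, 113 and 145 FPKM in IgG2b libraries, and H2-T9 at 32.8, 32.5 and 34.2 FPKM with DTA-1 against 30.5, 30.9 and 32.3 FPKM with IgG2b. In both, every DTA-1 value was the higher. How reads are split among these relatives was not measured, as shared windows were computed only for the 10 members. In IgG2b replicate 2, which held the lowest H2-Q8 value, H2-Q6 was listed at 47.8 FPKM, against 0 in every other library. Mr1, which presents microbial vitamin metabolites to MAIT cells, measured 2.20, 2.67 and 2.64 FPKM with DTA-1 and 2.79, 3.10 and 2.89 FPKM with IgG2b, lower in every DTA-1 library. Adjusted limma p-values of these 3 genes were 0.367, 0.784 and 0.629.

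None of the 12 tested genes that supply and load class I peptides passed the limma threshold (median log2 fold change -0.01, smallest adjusted p = 0.157). Group ranges were separate for 4 of them (3 higher and 1 lower with DTA-1), against 21.6% of all tested genes. Lnpep, an aminopeptidase gene whose product trims peptides in endosomes, measured 53.5, 52.6 and 52.1 FPKM in DTA-1 libraries, against 36.3, 43.4 and 36.2 FPKM in IgG2b libraries (log2 fold change 0.44 ± 0.12 (SE), limma adjusted p = 0.157). Psme2, a subunit gene of the proteasome activator PA28, measured 327, 270 and 268 FPKM with DTA-1 and 184, 264 and 221 FPKM with IgG2b (0.38 ± 0.16, limma adjusted p = 0.332). Tapbpl, which encodes the tapasin relative TAPBPR, measured 12.2, 12.9 and 11.9 FPKM with DTA-1 and 9.30, 8.18 and 10.9 FPKM with IgG2b (0.36 ± 0.13, limma adjusted p = 0.278). In all 3 the groups did not overlap. The chaperone genes Calr and Canx, the most abundant of the list, stood at 605 ± 55.0 and 350 ± 21.2 FPKM with DTA-1 and at 613 ± 43.3 and 360 ± 80.3 FPKM with IgG2b (SD, n = 3).

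Psmb9, an immunoproteasome subunit gene, is the divergent neighbour of Tap1, and their promoter windows lie on opposite strands and share 275 of 300 bases, so the Tap1 sequence printed above is largely that of Psmb9 as well. Psmb9 measured 45.3, 48.1 and 44.8 FPKM in DTA-1 libraries, against 66.1, 51.1 and 56.8 FPKM in IgG2b libraries. Every DTA-1 value was lower, with a log2 fold change of -0.32 ± 0.13 (SE, limma adjusted p = 0.308). The ratio of Psmb9 to Tap1 was 0.522, 0.504 and 0.519 with DTA-1 and 0.698, 0.703 and 0.571 with IgG2b, without overlap (exact permutation p = 0.1, the smallest possible; 0.233 adjusted over 7 ratios). This ratio was chosen after the values of both genes were seen.

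Of 8 other class II genes in the files, 5 were tested, and their groups overlapped in each case (median log2 fold change 0.21). H2-Eb1, the beta chain of the I-E molecule, had a pattern like that of the I-A chains: 13.8, 32.0 and 31.1 FPKM in DTA-1 replicates 1, 2 and 3, against 15.7, 19.6 and 28.5 FPKM in IgG2b replicates 1, 2 and 3. DTA-1 replicate 1 was again the lowest of all. Its log2 fold change was 0.21 ± 0.33 (SE, limma adjusted p = 0.839), and 0.59 without DTA-1 replicate 1 (limma adjusted p = 0.476). H2-Ea-ps, the row of the I-E alpha chain, was listed at 0 in all 6 libraries. H2-DMa, a chain of the peptide exchange factor H2-M, stood at 5.61 ± 0.53 FPKM with DTA-1 and 5.61 ± 1.07 with IgG2b (SD, n = 3).

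In the endosomal pathway of class II (9 tested, median log2 fold change 0.01), the groups separated for 2 protease genes, in opposite directions. Over all tested genes, 21.6% separated. Lgmn, which encodes the asparagine endopeptidase legumain, measured 38.9, 40.2 and 38.5 FPKM in DTA-1 libraries, against 45.3, 49.3 and 62.1 FPKM in IgG2b libraries (log2 fold change -0.39 ± 0.14 (SE), limma adjusted p = 0.252). Ctsz, which encodes cathepsin Z, measured 275, 201 and 195 FPKM with DTA-1 and 149, 182 and 162 FPKM with IgG2b (0.43 ± 0.16, limma adjusted p = 0.277). Ctsd, the most abundant of the list, stood at 319 ± 41.7 FPKM with DTA-1 and 292 ± 65.3 with IgG2b (SD, n = 3).

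Among transcription regulators of MHC genes (11 tested, median log2 fold change 0.02), Nlrc5, the class I transactivator, was far more abundant than Ciita, at 26.8, 39.0 and 36.2 FPKM with DTA-1 and 28.2, 33.5 and 38.3 FPKM with IgG2b. Its groups overlapped (log2 fold change 0.02 ± 0.17 (SE), limma adjusted p = 0.967). Nfyb, a subunit gene of NF-Y, measured 28.1, 29.4 and 31.7 FPKM in DTA-1 libraries, against 46.8, 49.2 and 32.2 FPKM in IgG2b libraries, lower in every DTA-1 library (-0.49 ± 0.17, limma adjusted p = 0.249). The acetyltransferase gene Kat2b was lower without overlap, at 8.58 ± 0.34 FPKM with DTA-1 and 11.3 ± 1.39 with IgG2b, and the coactivator gene Crebbp higher without overlap, at 16.0 ± 1.10 FPKM with DTA-1 and 12.5 ± 1.57 with IgG2b (SD, n = 3; limma adjusted p = 0.255 and 0.289).

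Interferon gamma is the classical inducer of both MHC classes, and none of the 20 tested genes of its response passed the limma threshold (median log2 fold change 0.09, smallest adjusted p = 0.129). Of these 20, 8 had separate group ranges (5 higher and 3 lower with DTA-1), against 21.6% of all tested genes. The kinase gene Jak2 measured 110, 85.1 and 88.8 FPKM with DTA-1 and 47.7, 79.8 and 59.5 FPKM with IgG2b (log2 fold change 0.62 ± 0.19, SE, limma adjusted p = 0.214). Ifngr2, a receptor chain gene, stood at 16.9 ± 5.81 FPKM with DTA-1 and 10.3 ± 1.76 with IgG2b, and the GTPase gene Gbp4 at 32.4 ± 1.45 FPKM with DTA-1 and 23.1 ± 7.43 with IgG2b, both higher without overlap. Irf2, at 27.9 ± 0.73 FPKM with DTA-1 and 35.8 ± 5.05 with IgG2b, and Irgm1, at 13.1 ± 3.15 FPKM with DTA-1 and 17.6 ± 1.5 with IgG2b (SD, n = 3), were lower without overlap. Socs1 and Jak1, the most abundant of the list, stood at 245 ± 83.8 and 101 ± 13.8 FPKM with DTA-1 and at 195 ± 55.1 and 88.1 ± 6.42 FPKM with IgG2b. The limma adjusted p-values of Ifngr2, Gbp4, Irf2 and Irgm1 lay between 0.256 and 0.351.

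**Figure D4:**
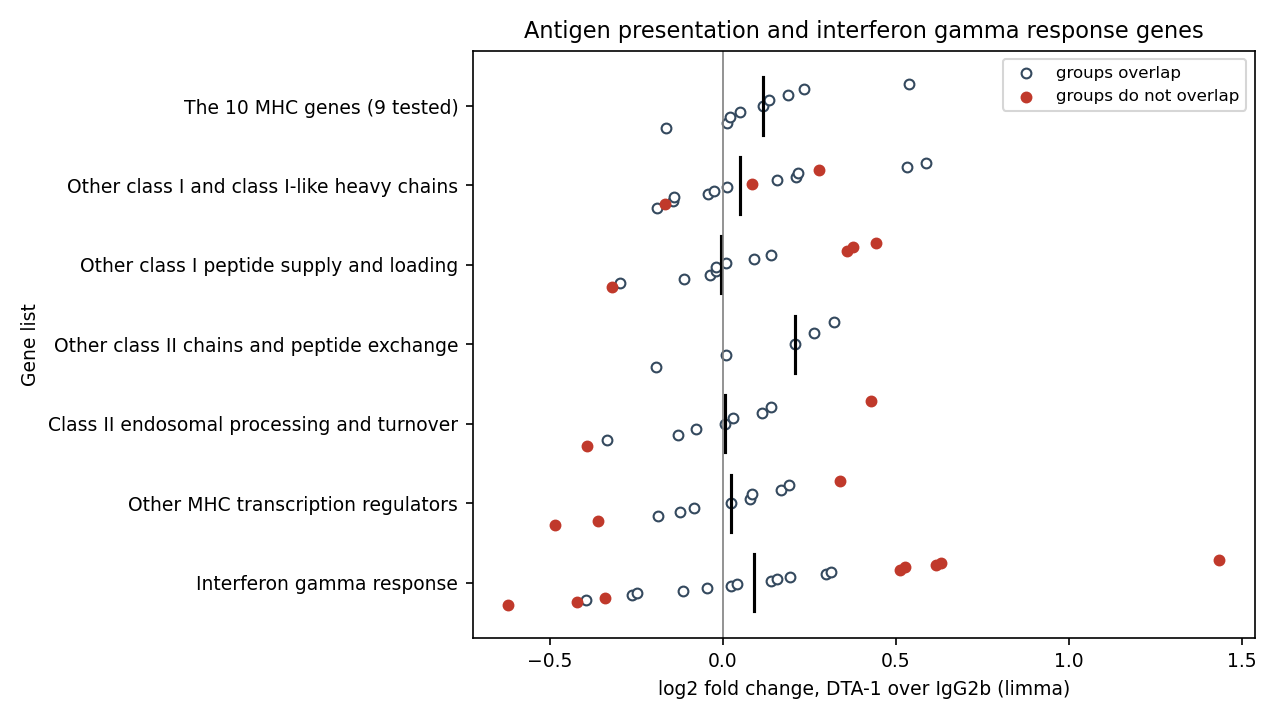
Log2 fold change of DTA-1 over IgG2b for each tested gene of 7 lists; filled red points are genes whose groups do not overlap, open points those that do, and black bars are list medians. The members' points are all open, and filled points lie on both sides of 0 in most of the other lists.

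For the likeness of patterns, tested genes outside the lists with a mean of at least 5 FPKM (8053) were correlated over the 6 libraries with the mean log2 profile of the class I members and with that of the class II members. The class I profile was closest to Tfip11, Spns1, Ddx49, Ddx51 and Gna15 (Pearson r between 0.969 and 0.988, Spearman rho between 0.886 and 1). The class II profile was closest to Fah, Nkain1, Uchl1, 6330416G13Rik and Fhl2 (Pearson r between 0.967 and 0.990, Spearman rho between 0.886 and 1). These are descriptions over 6 libraries that share groups and depth, and 54 and 31 genes exceeded an r of 0.9.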

How the data were processed

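RNA from 6 libraries of cultured mouse lung ILC2 (3 DTA-1, 3 IgG2b) was prepared with a directional kit, per the labels. Titles gave groups and replicate numbers; in replicates 2 and 3 a treatment tag numbers the antibody differently, and it was ignored. Each library has 1 deposited table of 23183 symbols with a value each. No header names a unit: the authors' values were read as FPKM from their steps and their totals of 574195 to 606724. TopHat and mm10 are named in the submitters' processing notes; for the quantifier, the annotation and strand use, the sources used here name none.

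The fit took log2(FPKM + 1) of the 10501 genes reaching 1 FPKM in 3 or more libraries and used limma 3.58.1 under R 4.3.3 (trend and robust moderation, group as the single term, 2-sided, Benjamini-Hochberg adjustment over all 10501, threshold 0.05), the planned test for normalized values. The script was tested on simulated data. Pseudocount, filter, scaling, moderation, library weights, a replicate block and left-out libraries were varied. The members, lists and ratios were chosen with earlier results of these data known. Named list genes are those whose groups do not overlap (up to 6 per list by mean FPKM) and the 2 most abundant of each list; 1 gene that this rule names is not reported here. Coordinates and transcripts are from GENCODE M21 (GRCm38, equivalent to mm10), and promoters from RefSeq on GRCm38.p6. Figures were drawn with matplotlib 3.10.9.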

Additional observations from a re-analysis of the deposited data

How the results depend on the processing

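No member passed the limma threshold in any of the 16 alternatives run. Directions held in all 16 for H2-K1, Tap2, Tapbp and Cd74. Small changes turned sign for the others: H2-D1 to -0.0321 with library quality weights; B2m to -0.0206 with equal totals, -0.0323 with quantile normalization and -0.0113 with library quality weights; Tap1 to -0.0131 with equal totals and -0.0386 with library quality weights. With each library left out in turn, log2 fold changes ranged from -0.0101 to 0.105 for H2-D1, -0.116 to 0.118 for B2m, -0.118 to 0.106 for Tap1, -0.0268 to 0.568 for H2-Aa and -0.0294 to 0.394 for H2-Ab1. Between 0 and 3 members then had groups that did not overlap, a count chosen after seeing the data: 3 without DTA-1 replicate 1 (in either direction, 30.1% of all tested genes), 1 without DTA-1 replicate 3 (Tap2; 30.2%), 1 without IgG2b replicate 1 (B2m, lower; 31.4%) and 3 without IgG2b replicate 3 (34.8%). The cause was not tested.

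Over all genes, 3 were higher and 1 lower with DTA-1. The higher count was 1 with no filter, 5 with quantile normalization, 161 with library quality weights and 59 with the replicate block, and 1 to 3 when single libraries were omitted. The lower count was 2 with equal totals, 2 with quantile normalization, 314 with library quality weights and 126 with the replicate block, and 1 with each library left out. The labels do not tell if replicate numbers pair the libraries. Deviations from group means correlated at 0.39, -0.10 and -0.13 for numbers 1, 2 and 3. With 3 libraries a group these values cannot settle the pairing, so the block counts are not read further. With 3 libraries a group, exact permutation p-values cannot go below 0.1.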

Other observations

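Several patterns outside the comparisons were picked after their values were seen. H2-Q6, a class I gene with near copies, was listed at 47.8 FPKM in IgG2b replicate 2 and at 0 in the other 5 libraries. H2-Oa, a chain of H2-O, which restrains peptide exchange on class II, stood at 9.17 FPKM in DTA-1 replicate 1, the library with the least H2-Aa, while DTA-1 replicates 2 and 3 had 4.38 and 3.77 FPKM, against 4.43, 3.29 and 4.72 FPKM in IgG2b libraries. Cxcl10, a chemokine gene of the interferon response, measured 8.30, 3.02 and 3.30 FPKM in DTA-1 libraries and 0.542, 1.41 and 1.19 FPKM in IgG2b libraries, the largest change of its list (log2 fold change 1.44 ± 0.32 (SE), limma adjusted p = 0.129), whereas Gbp3, a GTPase gene of the same list, measured 4.03, 6.27 and 8.14 FPKM with DTA-1 and 9.58, 10.6 and 8.88 FPKM with IgG2b (-0.62 ± 0.21, limma adjusted p = 0.240).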
